A study of Homo sapiens with 15 samples.

Results

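The immediate early response genes are genes whose short-lived mRNAs are induced within minutes of a stimulus, and 8 of them were followed by symbol through the deposited table, EGR1, IER2, JUN, JUNB, JUND, MYC, DUSP1 and MCL1. All 8 had a row, and each row was one transcript of the gene, among the 12261 genes of the table. The study, on UPF1 variants that differ in a regulatory loop of the helicase core, sequenced RNA of HEK-293 Trex cells, a human embryonic kidney line carrying a tetracycline-inducible expression system. It holds 15 libraries in 5 groups of 3. The total RNA groups are a line expressing GFP, a line with UPF1 isoform 1 carrying a CLIP tag (UPF1-1 below) and a line with isoform 2 carrying the same tag (UPF1-2 below), and the other groups are the RNA affinity-purified with each tagged isoform (IP). Every culture, GFP cells included, received 200 ng/mL doxycycline hyclate and was grown in serum-containing medium. The labels give no serum starvation and no acute stimulus, so the values are levels in growing cells. The transgenes were added to the cells' own UPF1, no IP from GFP cells is analysed here, and the labels do not say how many clones each line comprised.

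UPF1 is an RNA helicase of nonsense-mediated decay and of other mRNA decay pathways. Immediate early genes are switched on by preformed factors, chiefly serum response factor at CArG boxes and CREB at cyclic AMP response elements (CRE), after mitogen-activated kinases signal. Their mRNAs are unstable, in many cases through AU-rich elements, so that their levels follow both synthesis and decay. EGR1, the JUN proteins and MYC are transcription factors, IER2 is a small nuclear protein, DUSP1 is a phosphatase that switches off mitogen-activated kinases, and MCL1 is a short-lived survival protein of the BCL2 family.

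RefSeq promoter windows, from 250 bases before to 50 after the annotated start (build GRCh38.p14, whereas the submitters' processing notes name hg19), were found for 6 of the 8 genes. The windows of EGR1 and DUSP1 are printed because these genes were called in total RNA both against GFP and between the isoforms, and the window of JUN because it was the most abundant member with GFP and was called in neither. Each is written 5′ to 3′ on the gene's own strand, EGR1 at chr5:138465229-138465528 on the plus strand, DUSP1 at chr5:172771146-172771445 on the minus strand and JUN at chr1:58783998-58784297 on the minus strand. Capitals mark matches to the CArG box, the CRE half-site TGACG and the full CRE TGACGTCA, in either orientation, a full CRE holding half-sites within it.
EGR1: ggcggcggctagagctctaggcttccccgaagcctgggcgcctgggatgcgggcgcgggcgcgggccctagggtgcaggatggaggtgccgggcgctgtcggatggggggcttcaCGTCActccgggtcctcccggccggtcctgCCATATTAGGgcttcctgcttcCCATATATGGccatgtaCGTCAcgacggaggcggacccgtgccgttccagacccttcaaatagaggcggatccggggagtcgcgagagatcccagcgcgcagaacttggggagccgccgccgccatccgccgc
DUSP1: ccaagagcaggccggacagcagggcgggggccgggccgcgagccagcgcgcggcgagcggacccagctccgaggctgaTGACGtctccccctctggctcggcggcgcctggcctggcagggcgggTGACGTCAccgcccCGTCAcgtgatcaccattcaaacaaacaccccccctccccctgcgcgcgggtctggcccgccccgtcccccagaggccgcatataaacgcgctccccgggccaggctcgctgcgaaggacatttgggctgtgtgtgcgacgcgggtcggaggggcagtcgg
JUN: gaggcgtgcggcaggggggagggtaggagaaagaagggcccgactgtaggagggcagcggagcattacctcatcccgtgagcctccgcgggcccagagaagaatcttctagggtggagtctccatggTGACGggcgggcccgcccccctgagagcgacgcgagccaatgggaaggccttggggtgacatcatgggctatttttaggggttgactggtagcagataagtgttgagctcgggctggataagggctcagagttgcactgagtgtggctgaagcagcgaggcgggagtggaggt
The EGR1 window held 2 CArG boxes, which 1.29% of 35116 RefSeq promoter windows of the same length contain at least once, and the windows of the other 5 genes held 0. The CRE half-site, present in 24.6% of all windows, was found 4 times in DUSP1, 3 times in JUND, 2 times in EGR1 and once each in IER2, JUN and JUNB. A full CRE, present in 1.85% of all windows, was found once in DUSP1 and once in JUND. The GC box GGGCGG, an SP1 motif present in 45.0% of windows, was found 6 times in JUND, 4 times each in DUSP1 and IER2 and 2 times in JUN. TATAAA, present in 11.5% of windows, was found once each in DUSP1 and JUNB. These are matches of letters in RefSeq sequence and say nothing of whether a factor was bound in these cells.

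The third replicate stood apart in every group, and this touches all the values below. Across genes, the SD of the log2 ratio was 0.141 to 0.219 between replicates 1 and 2 of a group and 0.523 to 0.711 between either and replicate 3. UPF1 itself was at 3.24, 3.80 and 8.57 TPM (transcript abundance per length, scaled to one library total) with GFP, at 106, 94.5 and 186 TPM with UPF1-1 and at 68.9, 72.7 and 171 TPM with UPF1-2. UPF1 RNA was thus raised in the lines labelled as expressing UPF1. That row is 1 transcript, high in both lines, and does not tell isoform 1 from isoform 2. Of 8 fixed HEK-293 markers 5 were in the table, all at 2.28 TPM or more in every total RNA library, and of 9 markers of other cell types 0 were in it. Nothing in the labels says that replicates came from separate cultures, and the p-values therefore reflect spread among these libraries that may be technical. The read depth of the libraries is not given in the sources used here.

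In total RNA the 8 genes ranged from EGR1 at the low end to JUN at the high end, in an order that was much the same in the 3 lines. TPM is a per-length scale, so levels can be set side by side between rows. Each row is 1 transcript, so the order need not be that of the whole genes. With GFP the mean levels were JUN 20.0, JUND 17.0, MCL1 14.9, MYC 9.92, DUSP1 5.13, JUNB 3.86, IER2 2.72 and EGR1 0.659 TPM. Among neighbours in that order only MYC and DUSP1, and IER2 and EGR1, had ranges that did not overlap, and JUND exceeded MCL1 in 1 of 3 libraries. With UPF1-1 the order was the same, from JUN at 22.8 to EGR1 at 1.28 TPM, and with UPF1-2 JUNB at 4.98 and DUSP1 at 4.96 TPM changed places within overlapping ranges.

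**Figure D1:**
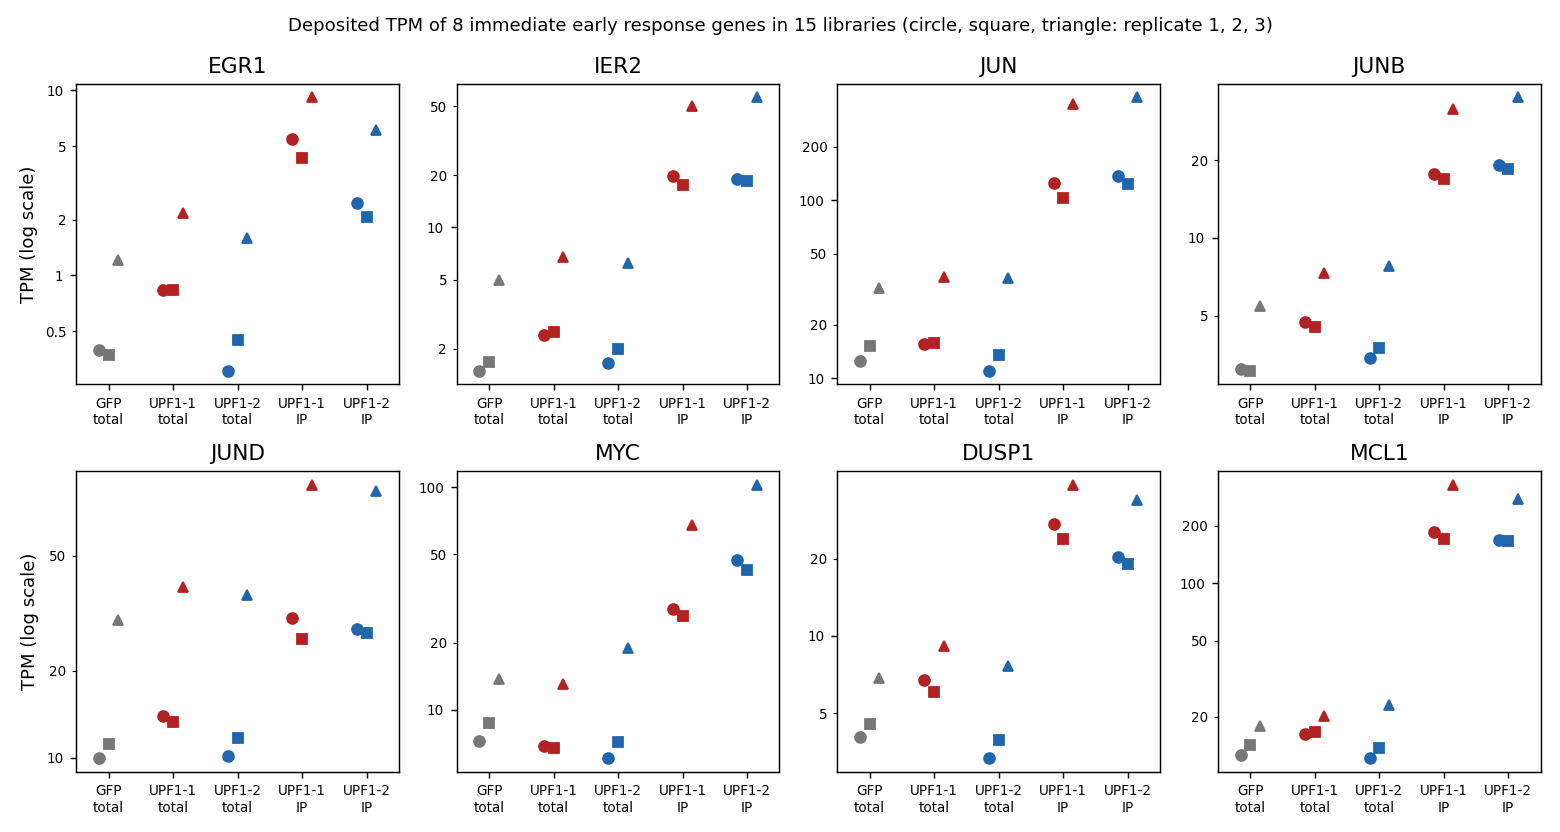
Deposited TPM (log axis) of each gene in each library, grouped by line and by total RNA or IP, with circles, squares and triangles for replicates 1, 2 and 3. The triangle is the highest point of its group in every panel, and each IP point lies above the total RNA point of the same line and replicate number.

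Total RNA of the UPF1-1 line held more of 5 of the 8 mRNAs than total RNA of the GFP line. EGR1, IER2, JUNB, JUND and DUSP1 were higher, MYC was lower, and JUN and MCL1 did not pass the test. The fitted rises were 1.21- to 1.44-fold and the fall 1.20-fold, all on the scale of TPM + 0.5, which shrinks the rise of the low EGR1. Values were compared as log2(TPM + 0.5) with the library medians set equal and the replicate number as a block, by limma over the 9325 genes that reached 1 TPM in 3 or more of the 9 total RNA libraries, with Benjamini-Hochberg adjustment and a 2-sided threshold of 0.05. All 8 genes entered that test, EGR1 only through its 3 libraries of replicate 3. Of all genes tested, 8.38% were called higher and 7.79% lower, and the median log2 difference was 0.33 for the 8 genes and -0.01 for all. The calls rest on the block and the centring. Without the block limma called 0 of 8, and 0.172% of all genes, with 3 of the 8 at an unadjusted p under 0.05. Without the centring it called EGR1 alone, and 3.23% of all genes. With replicates 1 and 2, which lie close together, averaged as 1, it called 3, DUSP1, EGR1 and JUNB, and 5.78% of all genes. Leaving out replicate 1, 2 or 3 gave 3, 0 and 5 calls, against 6.4%, 2.24% and 14.5% of all genes, and EGR1 could not be tested without replicate 3. In bulk RNA, a change in the share of cells that express a gene and a change in RNA per cell cannot be told apart.

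EGR1 (ENSG00000120738), a zinc finger transcription factor that is among the fastest genes to respond to serum, was the least abundant of the 8. It was at 0.394, 0.369 and 1.21 TPM with GFP, 0.836, 0.831 and 2.19 TPM with UPF1-1, and 0.305, 0.447 and 1.59 TPM with UPF1-2. Within each replicate number the UPF1-1 library was the highest of the 3, while the groups overlapped because of replicate 3. The log2 difference of UPF1-1 from GFP was 0.52 ± 0.08 (SE; limma adjusted p = 0.0045) and was 0.40, 0.57 and 0.60 in the 3 numbers. Most of these libraries lie near the 0.5 TPM pseudocount, which shrinks such differences, and the fit with a pseudocount of 0.1 TPM gave 0.80.

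IER2 (ENSG00000160888), a serum-induced nuclear protein, was at 1.49, 1.68 and 4.99 TPM with GFP, 2.40, 2.49 and 6.79 TPM with UPF1-1, and 1.66, 1.99 and 6.20 TPM with UPF1-2. Its UPF1-1 library was again the highest in each number. The difference from GFP was 0.38 ± 0.07 (limma adjusted p = 0.0097).

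The JUN proteins are the DNA-binding partners of FOS in the AP-1 factor, and the 3 family members differed. JUNB (ENSG00000171223), which can restrain JUN activity, was at 3.11, 3.06 and 5.43 TPM with GFP, 4.70, 4.51 and 7.28 TPM with UPF1-1, and 3.41, 3.75 and 7.78 TPM with UPF1-2. Its rise with UPF1-1 was 0.38 ± 0.06 (limma adjusted p = 0.0041), with 0.35, 0.45 and 0.35 in the 3 numbers. JUND (ENSG00000130522), the member that cells express most steadily without a stimulus, was at 9.99, 11.2 and 29.9 TPM with GFP, 14.0, 13.4 and 39.0 TPM with UPF1-1, and 10.1, 11.7 and 36.7 TPM with UPF1-2. Its rise was 0.27 ± 0.06 (limma adjusted p = 0.018). JUN (ENSG00000177606), the founding member of the family, was at 12.5, 15.2 and 32.3 TPM with GFP, 15.6, 15.8 and 37.0 TPM with UPF1-1, and 11.0, 13.4 and 36.3 TPM with UPF1-2. The 3 groups overlapped for JUN, and its difference of UPF1-1 from GFP, 0.10 ± 0.05, did not pass (limma adjusted p = 0.23).

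MYC (ENSG00000136997), a growth-promoting transcription factor, was the one member called lower. It was at 7.28, 8.73 and 13.7 TPM with GFP, 6.85, 6.73 and 13.0 TPM with UPF1-1, and 6.07, 7.15 and 18.9 TPM with UPF1-2. The UPF1-1 library was below the GFP library in 3 of 3 numbers, by centred log2 values of -0.26, -0.39 and -0.12. The fitted difference was -0.26 ± 0.08 and lies at the threshold (limma adjusted p = 0.048). It was also not called with genes of low value kept in the test, where MCL1 was (limma adjusted p = 0.046), with a pseudocount of 1 TPM, without the trend, or with replicates 1 and 2 averaged, at adjusted p-values of 0.059 to 0.20.

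DUSP1 (ENSG00000120129), the phosphatase in this set, was at 4.02, 4.53 and 6.86 TPM with GFP, 6.72, 6.04 and 9.14 TPM with UPF1-1, and 3.33, 3.92 and 7.64 TPM with UPF1-2. The order UPF1-1, GFP, UPF1-2 held in replicates 1 and 2 as deposited, and in replicate 3 GFP was lowest in TPM. Its rise with UPF1-1 was 0.39 ± 0.06 (limma adjusted p = 0.0043). MCL1 (ENSG00000143384), which holds back mitochondrial cell death, was at 12.6, 14.2 and 17.9 TPM with GFP, 16.2, 16.7 and 20.2 TPM with UPF1-1, and 12.2, 13.7 and 23.0 TPM with UPF1-2. The UPF1-1 value of MCL1 was above GFP in 3 of 3 numbers, and the difference of 0.16 ± 0.05 just missed the threshold (limma adjusted p = 0.059).

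**Figure D2:**
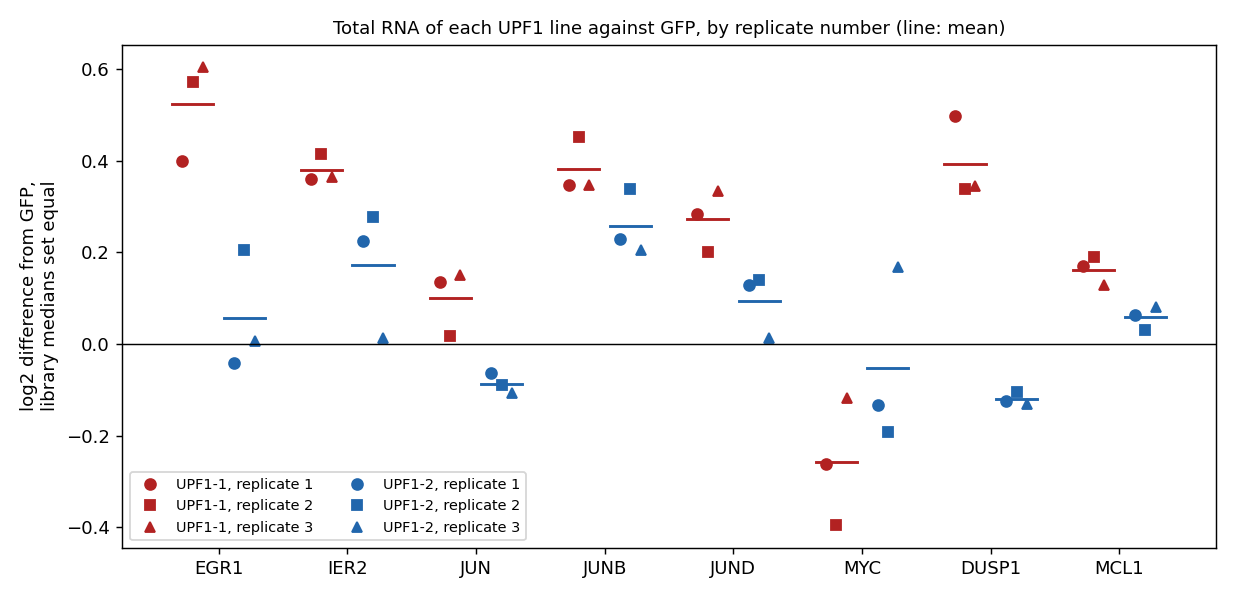
Centred log2 difference of each UPF1 line from GFP in total RNA (vertical axis) for each gene and replicate number, UPF1-1 in red and UPF1-2 in blue, with a line at the mean. All 3 UPF1-1 points lie above 0 for 7 genes and below 0 for MYC, and the UPF1-2 mean lies nearer to 0 than the UPF1-1 mean for each gene.

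UPF1-2 total RNA was not called different from GFP for any of the 8 genes by limma, where 2, JUNB and IER2, had an unadjusted p under 0.05. Of all genes tested, 0.375% were called in either direction. JUNB was nearest, higher by 0.26 ± 0.06 and in 3 of 3 numbers (limma adjusted p = 0.14). DUSP1 was at -0.12 ± 0.06 (limma adjusted p = 0.47), and its centred values of -0.13, -0.11 and -0.13 were all below 0. The other 6 genes lay between -0.09 for JUN and 0.17 for IER2, and MYC was lower in replicates 1 and 2 and higher in replicate 3. The median was 0.06 for the 8 genes and -0.02 for all. Both comparisons use the same GFP libraries, so their values are not independent of each other.

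Set directly against UPF1-2, total RNA of the UPF1-1 line was higher for EGR1 and DUSP1. Of all genes tested, 5.49% were called higher and 4.02% lower. The DUSP1 difference was 0.51 ± 0.06, or 1.43-fold, with 0.62, 0.44 and 0.48 in the 3 numbers (limma adjusted p = 0.0037). For EGR1 it was 0.47 ± 0.08, or 1.38-fold, with 0.44, 0.37 and 0.60 (limma adjusted p = 0.014). The 0.5 TPM pseudocount shrinks this EGR1 difference, and the fit with 0.1 TPM gave 0.73. The other 6 did not pass, with 4 of them at an unadjusted p under 0.05: JUN at 0.19, JUND at 0.18, IER2 at 0.21 and MYC at -0.21, at adjusted p-values of 0.061 to 0.11. The sign was shared by all 3 numbers for each of the 8 genes. Without the replicate block 0 were called, of the 8 as of all genes (0.0%), with 1 of the 8 at an unadjusted p under 0.05. Without replicate 2, 0 of the 8 and 0.185% of all genes were called. UPF1 mRNA was itself 0.31 ± 0.07 higher in the UPF1-1 line than in the UPF1-2 line (limma adjusted p = 0.036), so isoform and transgene level cannot be told apart here.

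The authors' deposited table of their own test with sleuth, whose model is not given in the sources used here, lists 0 of the 8 genes at a q-value under 0.05 in any of the 3 total RNA comparisons. For UPF1-1 against GFP that table gives p-values under 0.05 for 3 of them, 0.019 for EGR1, 0.038 for DUSP1 and 0.047 for JUNB. Between the isoforms the authors' deposited table gives 0.0048 for DUSP1 and 0.035 for EGR1, and against GFP with UPF1-2 it gives 0 under 0.05. Its mean estimated counts, a guide to precision, ran from 368 for EGR1 and 829 for IER2 to 8673 for JUN over the GFP and UPF1-1 libraries.

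A wider list of 50 other immediate early genes, of which 38 were in the table and 29 could be tested in total RNA, held 8 called higher and 0 called lower with UPF1-1 against GFP, where 8.38% of all genes were called higher and 7.79% lower. The list's median log2 difference was 0.14, against -0.01 for all genes. The largest rises were PPP1R15A at 1.28 ± 0.07 (limma adjusted p = 2.7e-05), ATF3 at 0.95 ± 0.06, GADD45A at 0.85 ± 0.12 and CSRNP1 at 0.52 ± 0.08. PPP1R15A, the subunit that directs a phosphatase to eIF2α, was at 1.94, 1.81 and 6.65 TPM with GFP and 6.56, 5.37 and 16.1 TPM with UPF1-1. PPP1R15A, ATF3 and GADD45A are also known as genes of the cellular stress response, and the other 5 called were CSRNP1, NFKBIA, RHOB, GADD45B and IER3. With UPF1-2 against GFP limma called 0 of the 29, with an unadjusted p under 0.05 for 7, and a list median of 0.04. Between the isoforms 7 were called higher with UPF1-1 and 0 lower, beside 5.49% and 4.02% of all genes, led by PPP1R15A at 0.92, ATF3 at 0.80, GADD45A at 0.54 and NFKBIA at 0.40. Without the replicate block 0 of the 29 were called in either comparison, and without centring 5 were called higher against GFP and 2 between the isoforms. Leaving out single replicates gave 4 to 6 higher calls against GFP and 2 to 5 between the isoforms.

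**Figure D3:**
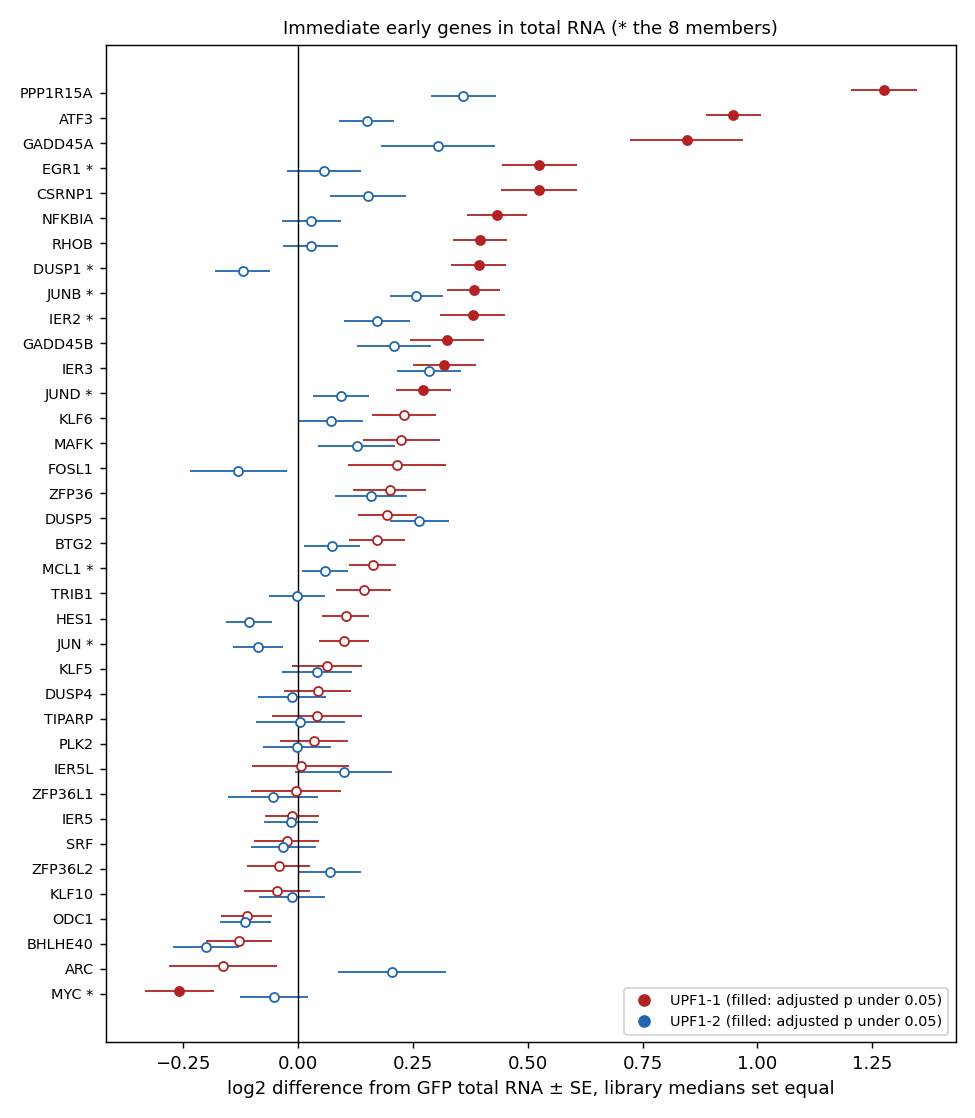
Log2 difference from GFP in total RNA (horizontal axis, with bars of 1 SE) for the 8 genes, starred, and the 29 other immediate early genes tested, UPF1-1 in red and UPF1-2 in blue, filled where the adjusted p was under 0.05. PPP1R15A, ATF3 and GADD45A lie to the right of EGR1, MYC is the one filled point to the left of 0, and no blue point is filled.

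Genes of the pathways around the 8 were called in total RNA as follows, beside the 8.38% higher and 7.79% lower among all genes. Among 24 tested kinases and serum response factors of the upstream pathway, UPF1-1 against GFP gave 0 higher and 1 lower, the coactivator MKL2 at -0.24 ± 0.07 (limma adjusted p = 0.049), with a list median of -0.09. Among 14 tested proteins that bind AU-rich or related elements there were 0 higher and 2 lower, IGF2BP1 at -0.33 and CELF1 at -0.27, with a median of -0.15. Of 12 tested AP-1 and MYC partners 3 were higher, ATF3, which is also in the wider immediate early list, MXD4 at 0.32 and ATF4 at 0.30, and 0 lower, with a median of 0.12. Of 10 tested BCL2 family genes, the relatives of MCL1, 1 was higher, the survival gene BCL2L1 at 0.49 ± 0.14 (limma adjusted p = 0.048), with a median of 0.10. Of the 5 HEK-293 markers tested, 0 were higher and 2 lower. With UPF1-2 against GFP limma called 0 genes of these lists, and at an unadjusted p under 0.05 there were 0 kinases and serum response factors, 1 AU-rich element binder, 3 partners, 2 BCL2 family genes and 1 HEK-293 marker. Without the replicate block 0 genes of these lists were called with UPF1-1 either.

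All 8 mRNAs were recovered with both UPF1 isoforms, and their TPM was higher in every IP library than in the total RNA library of the same line and number. That holds for most genes, since the listed genes made up 12.2 to 19.0% of the TPM scale in total RNA and 44.7 to 69.9% in the IPs, and the library median rose by 2.56 with UPF1-1 and 2.53 with UPF1-2 on the log2 scale. Before the medians were set equal, each of the 8 was called higher in the IP with both isoforms, as were 95.8% and 96.0% of all genes. The comparisons below are relative to that median shift, which "the typical gene" stands for, so "lower" means a rise smaller than the shift. The median of all genes' own differences was -0.16 with UPF1-1 and -0.15 with UPF1-2. A gene called slightly lower can therefore lie close to the median gene. The comparisons use 11969 genes that reached 1 TPM in 3 or more of the 12 libraries, IPs included. IP and total RNA of a line and number formed a block. EGR1 passed this filter only with its IPs counted. No IP from GFP cells is analysed here, so RNA that binds the beads or tag without UPF1 cannot be told apart from RNA bound to UPF1.

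With UPF1-1, 2 of the 8 were recovered more than the typical gene and 5 less, while 30.8% of all genes were called higher and 43.9% lower. With UPF1-2, 3 were higher and 4 lower, with 31.5% and 44.2% of all genes. The members' median was -0.54 with UPF1-1 and -0.12 with UPF1-2, against -0.16 and -0.15 for all genes. With UPF1-2 the shares called thus lie near those of all genes. With UPF1-1 the share called lower was above that of all genes, in a set of only 8. The 8 were spread across the range with both isoforms, with calls in both directions.

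MCL1 lay at the top. It was at 186, 169 and 327 TPM in the UPF1-1 IP and 168, 166 and 277 TPM in the UPF1-2 IP. Its IP over total RNA was 1.03 ± 0.07 with UPF1-1 (limma adjusted p = 3.5e-06) and 1.09 ± 0.07 with UPF1-2 (limma adjusted p = 2.4e-06), at percentiles 94.6 and 93.8 of all genes. The authors' deposited table gives IP over input ratios of 11.5, 10.1 and 16.2 for MCL1 with UPF1-1 and 13.8, 12.1 and 12.02 with UPF1-2. Among genes listed in that deposited table, the medians were 6.58, 6.34 and 7.98 with UPF1-1 and 7.91, 6.88 and 5.93 with UPF1-2, all below MCL1.

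JUND lay at the bottom, and so the JUN family was split. JUND was at 30.5, 25.8 and 87.9 TPM in the UPF1-1 IP and 27.9, 27.1 and 83.3 TPM in the UPF1-2 IP. Its IP over total RNA was -1.50 ± 0.08 with UPF1-1 (limma adjusted p = 9.3e-07) and -1.27 ± 0.08 with UPF1-2 (limma adjusted p = 2.0e-06), at percentiles 10.6 and 14.2 of all genes. JUN, with a total RNA level that overlapped that of JUND in every line, was at 125, 103 and 349 TPM in the UPF1-1 IP and 137, 123 and 380 TPM in the UPF1-2 IP. All JUN libraries were above the JUND library of the same IP. The IP over total RNA of JUN was 0.39 ± 0.08 with UPF1-1 (limma adjusted p = 0.0025) and 0.84 ± 0.08 with UPF1-2 (limma adjusted p = 2.6e-05). The JUN call with UPF1-1 was lost with a pseudocount of 0.1 TPM, without replicate 1 or without the block. JUNB, at 17.6, 16.9 and 31.5 TPM with UPF1-1 and 19.2, 18.5 and 35.0 TPM with UPF1-2, was lower, by -0.68 ± 0.07 and -0.33 ± 0.07. In the authors' deposited table the ratios of JUND were 1.94 to 2.76 over the 6 IPs and those of JUN 6.53 to 12.4.

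Of the other transcription regulators, IER2 was at 19.9, 17.6 and 49.9 TPM in the UPF1-1 IP and 19.0, 18.4 and 56.3 TPM in the UPF1-2 IP. It passed with UPF1-2 at 0.53 ± 0.09 (limma adjusted p = 0.00082) and not with UPF1-1 at 0.18 ± 0.09 (limma adjusted p = 0.12), where replicate 3 was at -0.05. MYC was at 28.4, 26.5 and 67.9 TPM with UPF1-1 and 46.9, 42.6 and 103 TPM with UPF1-2, the UPF1-2 library being higher in each number. It was lower than the typical gene with UPF1-1, at -0.49 ± 0.07 (limma adjusted p = 0.00034), and not called with UPF1-2, at 0.06 ± 0.07. EGR1 was at 5.45, 4.31 and 9.17 TPM with UPF1-1 and 2.45, 2.08 and 6.08 TPM with UPF1-2. It was lower than the typical gene by -0.61 ± 0.14 and -0.87 ± 0.14, values that its low total RNA level makes uncertain. The 0.5 TPM pseudocount also lowers them. The authors' deposited EGR1 ratios, without a pseudocount, were 6.52, 5.19 and 4.20 with UPF1-1 and 8.01, 4.64 and 3.84 with UPF1-2. In replicate 1 these were close to the medians of all listed genes, 6.58 and 7.91, and in replicates 2 and 3 below the medians. The phosphatase mRNA DUSP1, at 27.4, 24.0 and 39.0 TPM with UPF1-1 and 20.4, 19.0 and 33.9 TPM with UPF1-2, was lower by -0.60 ± 0.09 and -0.31 ± 0.09. Without the block 5 of 8 were called with each isoform, DUSP1, EGR1, JUNB, JUND and MCL1, against 51.8% of all genes with UPF1-1 and 54.2% with UPF1-2.

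**Figure D4:**
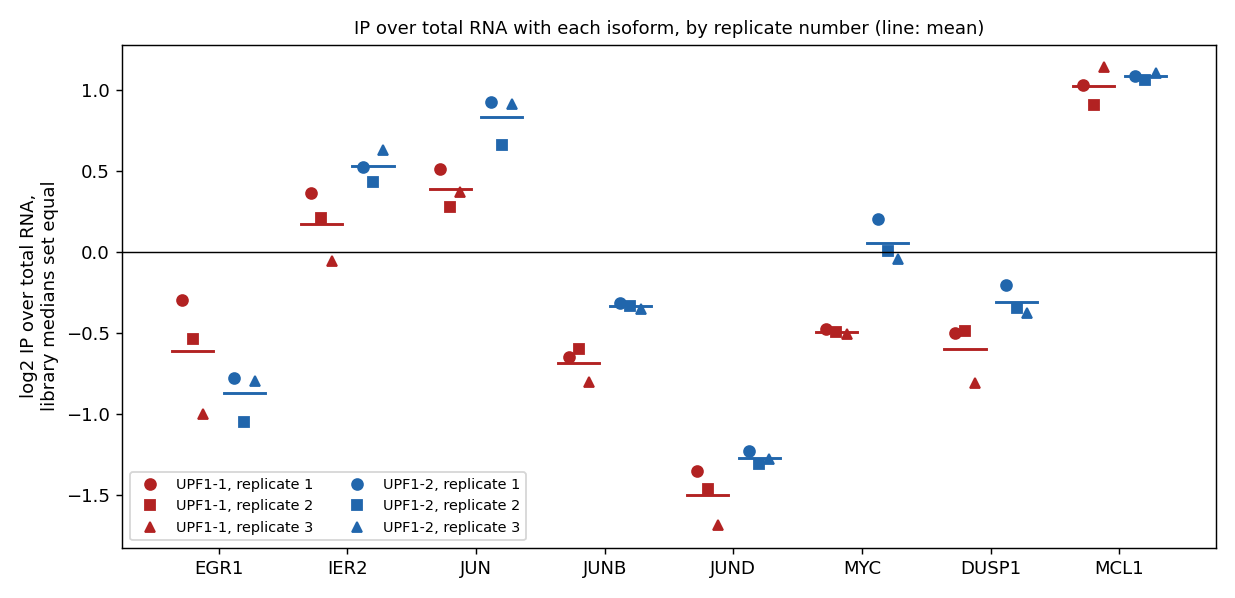
Centred log2 IP over total RNA (vertical axis) of each gene in each replicate number, UPF1-1 in red and UPF1-2 in blue, with a line at the mean. MCL1 and JUN lie above 0 and JUND, EGR1, JUNB and DUSP1 below 0 in every library pair, and all blue points lie above the red for IER2, JUN, JUNB, JUND, MYC and DUSP1.

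**Figure D5:**
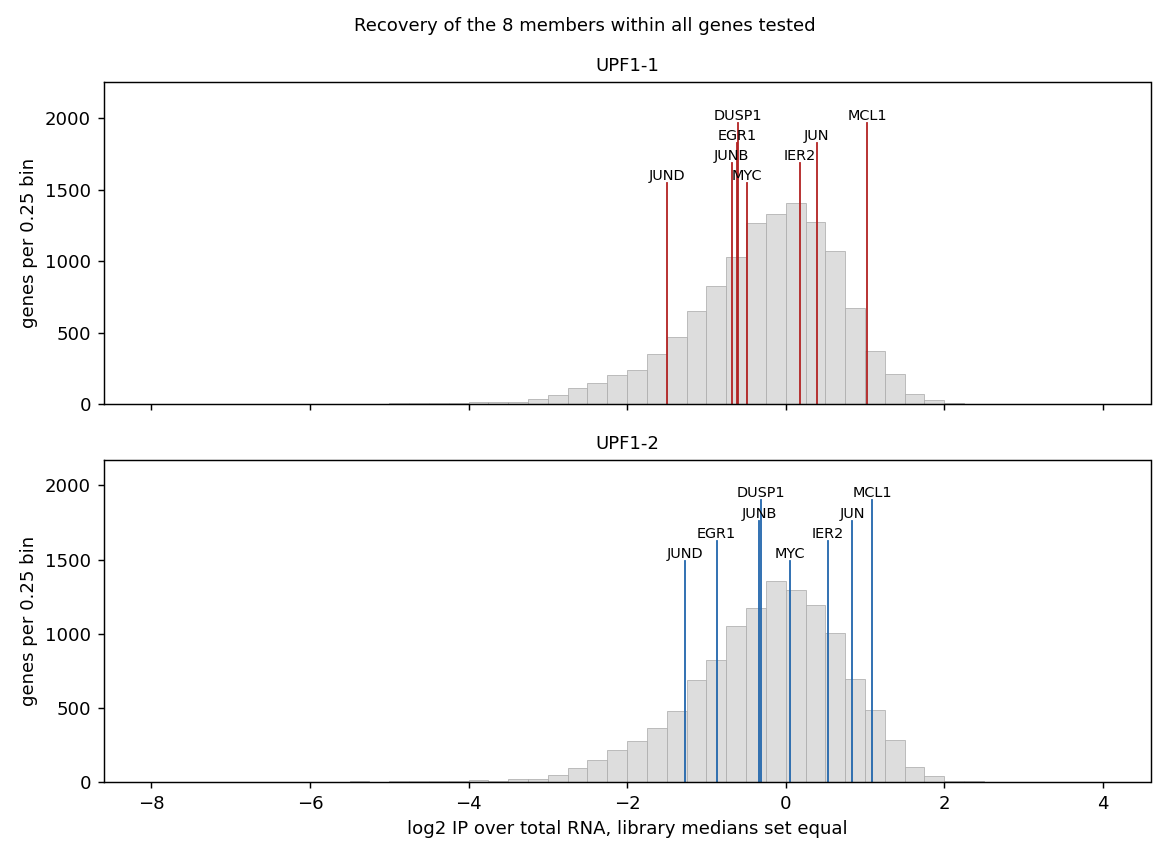
Number of genes (vertical axis) per bin of fitted log2 IP over total RNA (horizontal axis) for all 11969 genes, with lines at the 8 genes, UPF1-1 above and UPF1-2 below. The 8 lines run from JUND at -1.50 to MCL1 at 1.03 with UPF1-1 and from -1.27 to 1.09 with UPF1-2.

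Recovery over total RNA differed between the isoforms for MYC and JUN, both recovered less with UPF1-1. Of all genes tested, 4.43% were called higher with UPF1-1 and 6.27% lower. The MYC difference of UPF1-1 from UPF1-2 was -0.55 ± 0.10, with -0.68, -0.50 and -0.47 in the 3 numbers (limma adjusted p = 0.021). For JUN it was -0.45 ± 0.12, with -0.41, -0.38 and -0.54, and it lies at the threshold (limma adjusted p = 0.048). JUNB at -0.35, IER2 at -0.36, DUSP1 at -0.29 and JUND at -0.23 were lower in 3 of 3 numbers without passing, at adjusted p-values of 0.063 to 0.22. EGR1 at 0.26 and MCL1 at -0.06 had mixed signs. The members' median was -0.32 against -0.04 for all genes. Both calls rest on the block and the centring, and the JUN call on each replicate. Without the block, without the centring, without replicate 1 or without replicate 2, limma called 0 of the 8 and 0.0% of all genes, and without replicate 3 it called MYC and 9.4% of all genes.

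Other immediate early mRNAs lay on both sides of the typical gene in the IPs. Of 38 tested, 11 were recovered more and 22 less than the typical gene with UPF1-1, and 12 more and 17 less with UPF1-2, with medians of -0.46 and -0.26. These and the counts below stand beside 30.8% of all genes called higher and 43.9% lower in the UPF1-1 IP, and 31.5% and 44.2% in the UPF1-2 IP. Without the replicate block the counts for the 38 were 5 and 14, and 8 and 13. The highest with both isoforms were ATF3 at 0.96 and 1.09, DUSP6, a phosphatase related to DUSP1, at 0.83 and 0.95, and BTG2 at 0.70 and 0.79. ZFP36, which itself binds AU-rich elements, was at -1.74 and -1.50, and FOSL1, a FOS-family partner of JUN, at -1.57 and -1.76. In total RNA of the UPF1 lines ZFP36 was at 0.317 to 1.55 TPM, FOSL1 at 0.274 to 1.58 TPM and DUSP6 at 0.592 to 1.05 TPM. Each of these genes passed the 1 TPM filter only with its IPs counted. Those total RNA levels lie near the 0.5 TPM pseudocount, which lowers such values. Between the isoforms 0 were higher and 2 lower with UPF1-1, the transcription repressor HES1 at -0.52 ± 0.10 and IER5 at -0.39 ± 0.11, and without the block 0. Of the BCL2 family 5 of 12 were higher and 4 lower with each isoform, and PMAIP1, whose protein binds MCL1, was at 1.68 with UPF1-1. Of 26 upstream kinases and serum response factors, 10 rose above the typical gene and 9 fell below it in the UPF1-1 IP, and in the UPF1-2 IP 9 and 11 did so. Among them ELK3 at 0.77 and ATF2 at 0.76 were recovered more with UPF1-1 than with UPF1-2, calls that were lost without the block. Of 16 binders of AU-rich or related elements, 7 were higher and 7 lower with each isoform, and of 15 AP-1 and MYC partners 4 were higher and 7 lower with each.

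How far each gene followed the third replicate differed among the 8. After the medians were set equal, replicate 3 exceeded the mean of replicates 1 and 2 in total RNA of GFP, UPF1-1 and UPF1-2 by 0.99, 1.08 and 0.87 for JUND, by 0.93, 0.91 and 0.69 for IER2 and by 0.73, 0.80 and 0.70 for JUN. These lie at percentiles 96.3, 94.3 and 92.4 of all genes. MCL1, at -0.06, -0.11 and -0.03, and DUSP1, at 0.16, 0.09 and 0.14, hardly moved. In the IPs the same shift was 0.85 and 0.87 for JUND and 0.10 and 0.01 for MCL1.

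The genes whose centred log2 levels were most like a member's over the 9 total RNA libraries were ranked by Pearson's r. They were taken from the other genes with a mean of at least 5 TPM. The third replicate weighs most on r for members that followed it, such as JUND, IER2 and JUN, and less for DUSP1 and MCL1. EGR1 was closest to H2AFY2 at 0.98, FOXD1 at 0.97 and PPP1R15A at 0.97, and DUSP1 to COPG1 at 0.97, GSG2 at 0.96 and RPS28 at 0.96. JUN was closest to FEM1A, MTOR and LDOC1L, and 392 genes had an r of 0.95 or more with it, whereas MCL1, closest to GINS1 at 0.96, DYM and CSTF1, had 1 such gene. JUND was closest to ZNF768, DRAP1 and PPP5C, IER2 to EGLN2, PRPF6 and OGFR, JUNB to MAPRE2, CSNK2A1 and RTFDC1, and MYC to UBE2E1, HMGB1 and HSPA4. Within the set, r was 0.99 between JUND and IER2, 0.98 between JUN and JUND and -0.65 between MYC and MCL1. Over the log2 of the 6 deposited IP over input ratios EGR1 was closest to ZNF703, SDHC and C15orf61, IER2 to FASN, NT5DC2 and PRPF8, JUN to SF3B2, DYNC1H1 and NCAPD3 and JUNB to ATP6V1B2, ECI1 and ESD. JUND was closest to PDLIM1, CASC3 and SRP68, MYC to ATP6V1B2, FKBP4 and KIF2C, DUSP1 to MLF2 and MMS19, and MCL1 to ITCH, GRSF1 and RP11-778J16.2, the first named for each at an r of 0.986 to 0.998. These correlations share libraries and carry no test.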

How the data were processed

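The table was deposited by the authors with 1 transcript row per gene and no read counts. Its TPM values are the authors' own, per the file headers, as are the IP over input ratios (a ratio of TPM), the log2 fold changes, and the p-values, q-values, natural log effects and variance scores of a sleuth test. The submitters' processing notes name cutadapt, kallisto, sleuth and hg19, with no versions. From the deposited variance scores, the squared difference of replicates 1 and 2 over the inferential variance had a median of 0.967 with GFP, 1.05 with UPF1-1 and 3.04 with UPF1-2 in total RNA, where that variance alone would give 0.455. In GFP and UPF1-1 the medians for replicates 1 and 2 thus lie above that variance alone. They lie far below those of either against replicate 3, 32.2 to 42.0. Replicates 1 and 2 were kept as separate replicates and were averaged as an alternative. The IPs have no such scores.

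Computed here were log2(TPM + 0.5) values, library medians set equal, and limma 3.58.1 in R 4.3.3 with a mean-variance trend and 2-sided Benjamini-Hochberg adjustment over all genes that reached 1 TPM in 3 or more libraries. The block was the replicate number in total RNA and the line and number in the IP fit. Same-numbered libraries deviated together (r of 0.70 to 0.95 in total RNA and 0.57 to 0.91 in the IP fit), as did replicates 1 and 2 (0.64 to 0.80 in total RNA), so the numbers mainly set replicate 3 apart. The code was tested on simulated data. All group labels come from the sample titles.

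The members and lists were chosen with earlier results of these data known. The lists were other immediate early genes, upstream kinases and serum response factors, AU-rich element binding factors, AP-1 and MYC partners, the BCL2 family and cell markers. Named beyond the members were up to 4 of the largest called rises and falls per list and the 3 genes most like each member. DUSP6, BTG2, PMAIP1 and the partners named in the text come from that rule. Some genes the rule gives are not reported here. Alternatives were no block, no centring, upper-quartile scaling, pseudocounts of 0.1 and 1 TPM, no filter or 5 TPM, no trend, and each replicate left out.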

Additional observations from a re-analysis of the deposited data

Results flagged for a closer look

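The effect against GFP in total RNA differed between the isoforms for 2 genes by limma's test of the difference itself. For EGR1 the difference of UPF1-1 from UPF1-2 was 0.47, and for DUSP1 it was 0.51, on the log2 scale, higher with UPF1-1 in 3 of 3 replicate numbers for both. IP over total RNA differed between the isoforms for JUN, by -0.45, and for MYC, by -0.55, lower with UPF1-1 in 3 of 3 numbers for both. Each of the 4 calls was lost without the replicate block.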

How the results depend on the processing

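Main counts of members called were 6 for UPF1-1 against GFP, 0 for UPF1-2 against GFP, 2 between the isoforms in total RNA, 7 and 7 for IP over total RNA, and 2 for the isoform difference in recovery. Without the replicate block the pairing is ignored, and these became 0, 0, 0, 5, 5 and 0, with centring or, for total RNA and the isoform difference, without it. Without centring but with the block they were 1 for UPF1-1 against GFP, 1 between the isoforms, 8 and 8 in the IPs, and 0 for the isoform difference. With replicates 1 and 2 averaged, an alternative chosen after seeing the data, they were 3 for UPF1-1 against GFP, 1 between the isoforms and 0 for the isoform difference. A filter of 5 TPM, which EGR1 and IER2 did not pass in total RNA, gave 4 for UPF1-1 against GFP and 1 between the isoforms. A pseudocount of 1 TPM or no trend gave 5 for UPF1-1 against GFP, MYC being lost, and that pseudocount gave 3 between the isoforms, JUN being gained. The isoform difference gave 1 call, MYC, with that filter, upper-quartile scaling, a pseudocount of 0.1 or 1 TPM, or no trend. Leaving out single replicates gave 0 to 5 for UPF1-1 against GFP, 0 to 2 between the isoforms and 0 to 1 for the isoform difference. UPF1-2 against GFP gave 0 in every alternative run. In the IPs, JUN with UPF1-1 was lost with a pseudocount of 0.1 TPM or without replicate 1. DUSP1 with UPF1-2 was lost with a pseudocount of 1 TPM or without replicate 2. The pseudocount of 1 TPM also added IER2 with UPF1-1 and MYC with UPF1-2, and leaving out replicate 3 added IER2 with UPF1-1.

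Signs changed for IP over total RNA without centring, with or without the block: with UPF1-1 EGR1 1.95, JUNB 1.88, JUND 1.06, DUSP1 1.96 and MYC 2.07, and with UPF1-2 EGR1 1.66, JUNB 2.20, JUND 1.26 and DUSP1 2.22. The median shift that centring removes gives these. Values near 0 also crossed it. MYC with UPF1-2 IP over total RNA was -0.059 with upper-quartile scaling, -0.11 with a pseudocount of 0.1 TPM, -0.039 with the 5 TPM filter and -0.020 to 0.094 when single replicates were left out. Against GFP with UPF1-2, MYC was 0.0027 with replicates 1 and 2 averaged, and leaving out single replicates gave -0.14 to 0.016 for MYC and -0.019 to 0.11 for EGR1. The isoform difference of MCL1 was 0.024 with upper-quartile scaling. The cause of these crossings of values near 0 was not tested. Depth is not given, and EGR1, below 1 TPM in 6 of 9 total RNA libraries, is the least precisely measured.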
